A study of Solanum lycopersicum with 9 samples.

Results

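The Thi4 family of thiamine thiazole synthases was represented by 1 sequence, T30_1_TRINITY_DN15030_c0_g1, among the 82125 assembled tomato sequences with deposited expression values. The family was defined by the Pfam domain PF01946 in the deposited protein annotation, which covers 14720 of the 82125 sequences, and no other sequence carried this domain. The sequence also carried the TIGRFAM description of a thiazole biosynthesis enzyme. It was chosen because of its fall at 30 mM p-hydroxybenzoic acid against the control, so its values at 30 mM are described without a test. The annotation gives no tomato gene name or position for the sequence. Near-identical gene copies assembled into 1 sequence cannot be told apart.

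Leaf RNA of the tomato (Solanum lycopersicum) cultivar Diana was sequenced in 3 groups of 3 libraries. These were a control labelled untreated, taken here as 0 mM, and 15 mM and 30 mM of PHBA (p-hydroxybenzoic acid). PHBA is a phenolic compound studied as an allelochemical, a compound through which plants affect their neighbours. Plants of all groups were a month old at treatment and leaves were taken 2 days later. RNA of plants of the same treatment was mixed in equal parts, and no label ties the 3 libraries of a group to separate plants. The p-values therefore measure how far these libraries spread, and that spread may be technical.

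Thiamine (vitamin B1) is built in plant plastids from a thiazole and a pyrimidine part made separately. Thi4 makes the thiazole part from NAD and glycine, and in yeast and Arabidopsis it takes the sulfur from a cysteine of its own protein, so that each protein molecule works only once. ThiC, an iron-sulfur enzyme, makes the pyrimidine part. A thiamine phosphate synthase joins the parts, and after removal of the phosphate thiamine pyrophosphokinase forms thiamine diphosphate, the cofactor of transketolase, of the pyruvate and 2-oxoglutarate dehydrogenases and of the first enzyme of plastid isoprenoid synthesis.

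Expression is given in FPKM, fragments scaled by sequence length and library size, which is a level per length and allows sequences to be compared. FPKM summed to between 349075.96 and 383347.14 per library. Relative depth was estimated at 0.88 to 1.2 times that of control replicate 1, while absolute depth is unknown. The estimate used ratios of sequences found in 4 or fewer libraries. Only ratios from 0.7 to 1.4 were kept, so a larger difference in depth could not show. The 4 most abundant sequences took up 39.4 to 45% of the summed FPKM of the control libraries, 26.9 to 44.6% of that in the 15 mM libraries and 33.5 to 42.4% of that in the 30 mM libraries, so the main Thi4 values are also given with those 4 left out. Of the 44203 sequences tested, limma called 0.0995% at 15 mM against control, 11.8% at 30 mM against control and 3.1% at 30 mM against 15 mM (adjusted p under 0.05). Of the calls at 30 mM against control 85.1% were higher as deposited, 75.4% with those 4 sequences left out, 54.6% after median-of-ratios rescaling and 50.8% after quantile normalization, and the 2 last scalings each moved the median of all sequences by -0.19 on the log2 scale. Leaf markers (chlorophyll-binding and RuBisCO proteins) summed to between 1870 and 7700 FPKM per library. Terpene synthases of glandular trichomes summed to 5.72 to 9.55 FPKM and pollen-type proteins to 25.4 to 45.2 FPKM. The xylem and root list, of laccase-type multicopper oxidases and Casparian strip domain proteins, summed to 70.7 to 111 FPKM. Its oxidases include a sequence annotated as L-ascorbate oxidase.

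Thi4 was among the most abundant annotated transcripts of the control leaves and was much scarcer in leaves treated with 30 mM PHBA. Its level was 245.79, 280.81 and 333.41 FPKM in the control libraries, 207.93, 139.11 and 302.75 FPKM at 15 mM and 47.61, 72.68 and 36.48 FPKM at 30 mM. All 3 libraries at 30 mM lay below the 6 others, whereas 15 mM replicate 3 lay within the control range and the other libraries at 15 mM lay below it. The means were 287 ± 44.1 FPKM in the control, 217 ± 82.2 FPKM at 15 mM and 52.3 ± 18.5 FPKM at 30 mM (SD, n = 3 each). The order of the levels was thus control, 15 mM and 30 mM, and the first pair in that order overlapped. Relative to the level, the spread within a group was wider under treatment. The highest library was 1.36 times the lowest in the control, 2.18 times at 15 mM and 1.99 times at 30 mM. Without the 4 most abundant sequences these were 1.29, 1.69 and 1.78 times, and after median-of-ratios rescaling 1.18, 1.62 and 1.71 times.

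**Figure D1:**
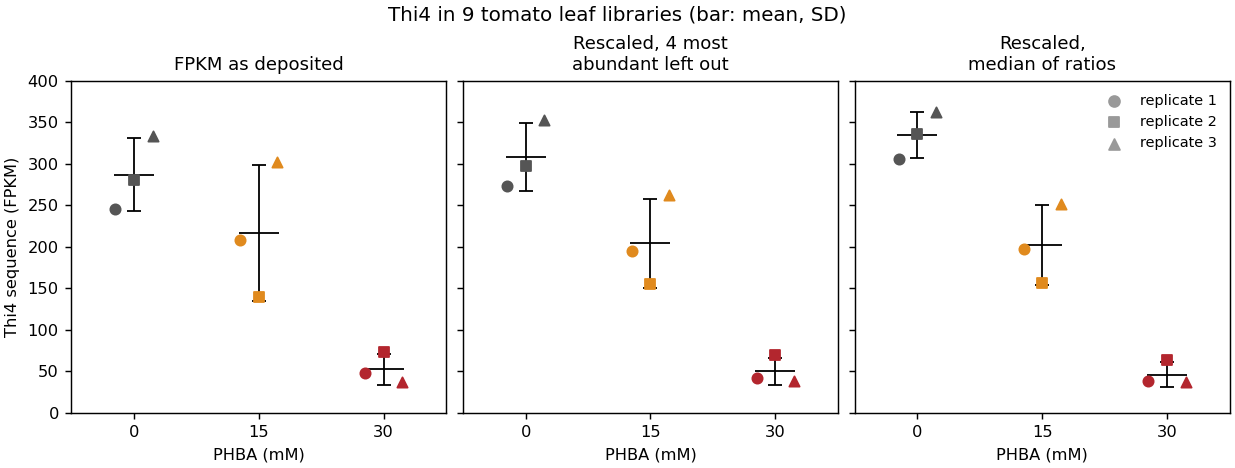
Level of the Thi4 sequence (FPKM, y axis) in each of 9 leaf libraries by PHBA dose (mM, x axis), as deposited (left), rescaled without the 4 most abundant sequences (middle) and rescaled by the median of ratios (right); points are libraries, shaped by replicate number, and bars are the mean and SD of 3 libraries. The libraries at 30 mM sit between 36.48 and 72.68 FPKM as deposited, below all others in each panel, and the groups at 15 mM and 0 mM overlap only in the left panel.

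At 30 mM the mean Thi4 level was 18.2% of the control mean, a log2 difference of -2.48 (SE 0.32, 95% interval -3.20 to -1.75) on the log2(FPKM + 1) scale used for all differences here. Against 15 mM the log2 difference was -2.02 (SE 0.32, 95% interval -2.74 to -1.29). Both are descriptions, since these 30 mM libraries were used to choose the sequence. The difference from the control was -2.64 without the 4 most abundant sequences, -2.88 after median-of-ratios rescaling and -2.59 after quantile normalization, and it lay between -2.74 and -2.25 when any 1 library was left out.

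At 15 mM the Thi4 mean was 75.6% of the control mean and the difference did not pass the test. The log2 difference was -0.46 (SE 0.32, 95% interval -1.19 to 0.26; limma, adjusted p = 0.628), and this comparison shares its control libraries with the one that chose the sequence. The interval holds both no difference and one of -1.19 on the log2 scale, so a lower level at 15 mM was not detected. Across the other scalings, filters, pseudocounts and left-out libraries the difference stayed between -0.75 and -0.18, with adjusted p-values of 0.341 to 0.802. Scaling changed the overlap: without the 4 most abundant sequences, Thi4 was at 195, 155 and 262 FPKM at 15 mM, against 273, 298 and 353 FPKM in the control. After median-of-ratios rescaling it was at 197, 156 and 252 FPKM at 15 mM, against 306, 336 and 362 FPKM in the control. The groups did not overlap on either of these scales, and the share of annotated sequences doing the same there was not computed. As deposited, where Thi4 overlapped, 2.02% of annotated sequences were lower at 15 mM without overlap.

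In the ranking of the 13634 annotated sequences tested, Thi4 stood at places 24, 29 and 19 in the control libraries, 33, 41 and 29 at 15 mM and 304, 110 and 307 at 30 mM. The fitted fall at 30 mM was the third in size of these 13634, and the largest of the 76 with a control mean of at least 100 FPKM. Of all 44203 sequences tested it ranked 19, on a scale that understates the change of low sequences. These ranks describe the contrast that chose the sequence.

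**Figure D2:**
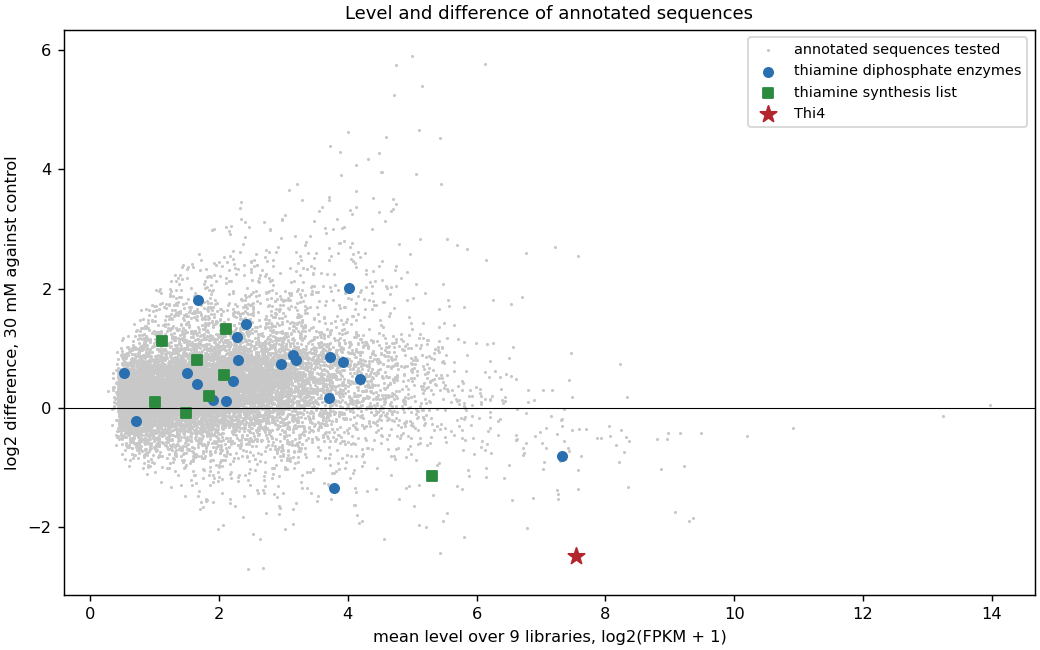
Mean level over the 9 libraries (log2(FPKM + 1), x axis) and log2 difference of 30 mM against control (y axis) for the 13634 annotated sequences tested (grey), the thiamine diphosphate enzymes (blue circles), the thiamine synthesis list (green squares) and Thi4 (red star). Thi4 lies at a difference of -2.48, below the other sequences of like level, while most other thiamine synthesis sequences have low levels and lie near or above 0.

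Leaf markers were lower beside Thi4 at 30 mM, by a smaller log2 difference at the median but not in every marker. Of 26 chlorophyll-binding and RuBisCO sequences tested, 19 were lower at 30 mM against control and none was higher (limma, adjusted p under 0.05), with a median log2 difference of -1.25. The largest fall among those called was -2.68 (SE 0.55), beyond the -2.48 of Thi4. It was that of TCK_2_TRINITY_DN1025_c0_g2, at 0.43, 1.95 and 0.26 FPKM at 30 mM, against 9.53, 21.42 and 4.92 FPKM in the control. Its call was lost without 30 mM replicate 1 or 3, or control replicate 1 or 2. The next largest falls were -2.01, -1.89 and -1.85, smaller than that of Thi4. Among annotated sequences 2.95% were called lower and 21.1% higher in this comparison. Without the 4 most abundant sequences 5.97% were lower and 22.2% higher. Median-of-ratios rescaling gave 9.73% lower and 13.3% higher, and quantile normalization 10.6% lower and 11.6% higher. Thi4 amounted to 2.11, 2.42 and 1.95% of the leaf marker sum at 30 mM, against 4.92, 3.65 and 5.73% in the control. These shares did not overlap, which is a description, since Thi4 was chosen by its fall at 30 mM. How many other sequences have shares so separated was not computed. At 15 mM the share was 4.31, 3.28 and 5.23%, within the range of the control or just below it. In bulk leaf RNA, fewer cells of a type and less RNA per cell cannot be told apart. None of the leaf markers, nor any of the 14 trichome, 6 pollen and 29 xylem and root markers, was at 0 in all 9 libraries. The trichome marker sum was 8.62 to 9.55 FPKM at 30 mM, against 6.02 to 7.21 FPKM in the control, with none of 9 tested members called (1 with an unadjusted p under 0.05). Of the xylem and root markers 4 of 27 were higher at 30 mM, with a sum of 85.2 to 108 FPKM, against 72.5 to 84.9 FPKM in the control. The sequence annotated as L-ascorbate oxidase, T15_3_TRINITY_DN5304_c0_g1, was among these 4. Of the pollen-type markers 1 of 6 was lower. After median-of-ratios rescaling or quantile normalization 2 of the 27 xylem and root markers were higher and 3 were lower. The part of these markers in the Thi4 result was not tested.

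The annotation held 9 sequences for thiamine synthesis and its side families, and all 9 passed the filter on low values. Relative to the control, at 30 mM 2 were lower (Thi4, which the choice fixes, and ThiC), 2 were higher and 5 were not called, beside 2.95% lower and 21.1% higher of annotated sequences, with a median log2 difference of 0.21 beside 0.30 for all annotated sequences. Without Thi4 itself 1 of 8 was lower and the median was 0.38. The median of the 9 became -0.08 after median-of-ratios rescaling or quantile normalization, while the counts stayed at 2 in each direction. On those scales 13.3 and 11.6% of annotated sequences were called higher and 9.73 and 10.6% lower. Without the 4 most abundant sequences 3 of the 9 were higher and 2 lower, beside 22.2 and 5.97% of annotated sequences. None of the 9 was called at 15 mM against control, and none had an unadjusted p under 0.05 there. In that comparison 0.132% of annotated sequences were called higher and 0% lower. At 30 mM against 15 mM the 8 sequences other than Thi4 had 2 higher calls and none lower, beside 4.81% of annotated sequences higher and 1.15% lower. The higher count was 0 without 15 mM replicate 1 or 30 mM replicate 3 and 1 without 15 mM replicate 2.

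**Figure D3:**
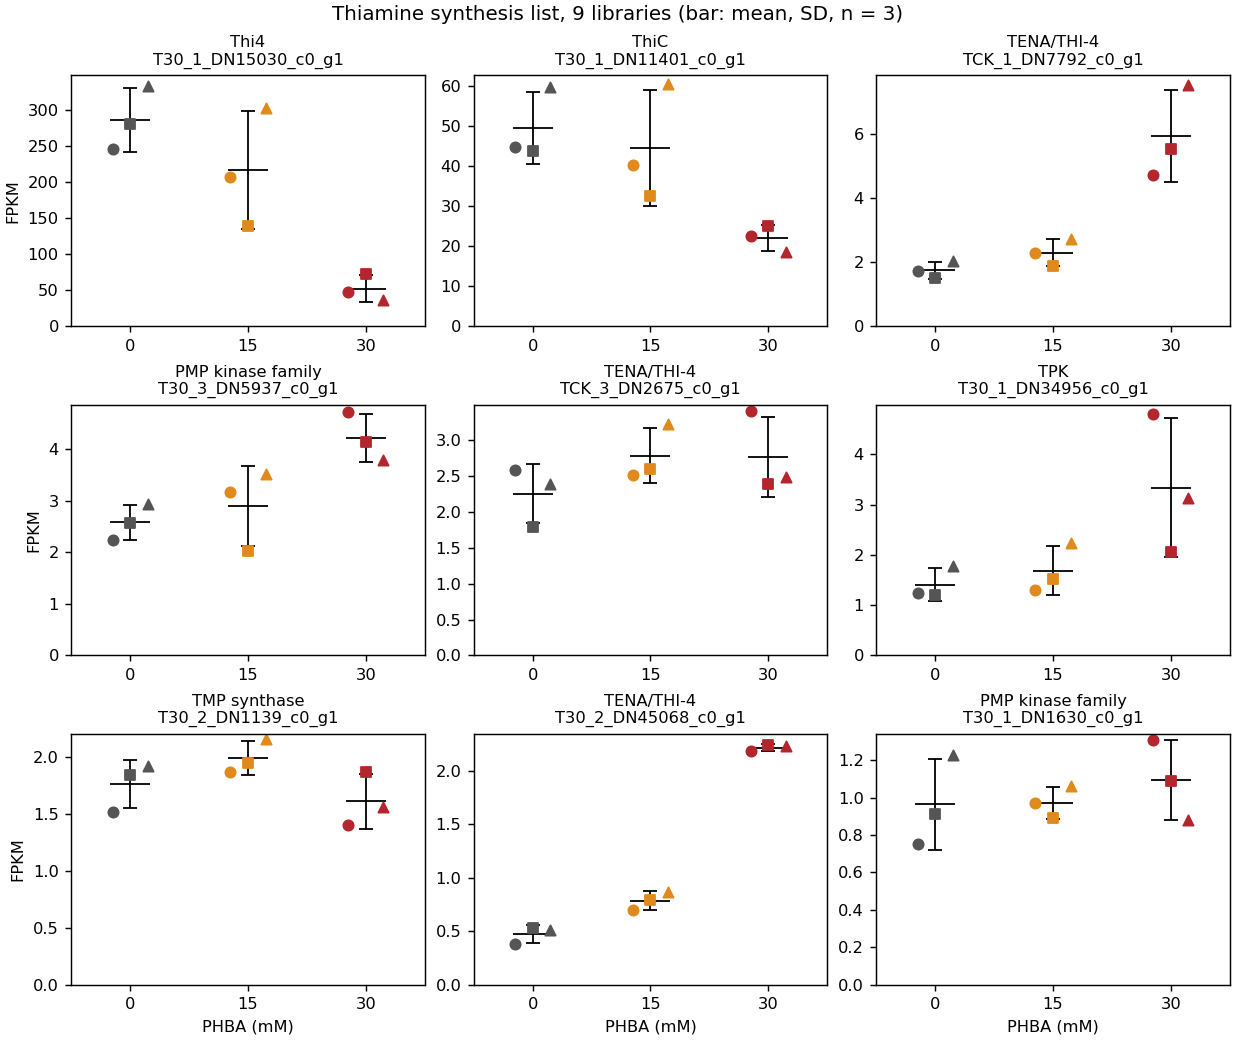
Levels (FPKM, y axes, each panel with its own scale from 0) of the 9 sequences of the thiamine synthesis list by PHBA dose (mM, x axes), ordered by mean level; points are libraries, shaped by replicate number, and bars are the mean and SD of 3 libraries. Thi4 and ThiC are lowest at 30 mM, with means of 52.3 and 22 FPKM, and the other sequences reach at most 7.53 FPKM in any library.

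ThiC, T30_1_TRINITY_DN11401_c0_g1, was the second most abundant sequence of the pathway and fell at 30 mM. It was at 22.49, 24.98 and 18.47 FPKM at 30 mM, against 44.87, 43.73 and 59.86 FPKM in the control, without overlap (log2 difference -1.13, SE 0.23; limma, adjusted p = 0.0161). At 15 mM it was at 40.33, 32.58 and 60.59 FPKM, a range that spans that of the control (log2 difference -0.18; limma, adjusted p = 0.795). Its call at 30 mM was lost without 30 mM replicate 3 (adjusted p = 0.0509) or control replicate 3 (adjusted p = 0.0584). The 30 mM difference from 15 mM was -0.95 (SE 0.23; limma, adjusted p = 0.0678).

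The level of the thiazole enzyme was therefore also set against that of the pyrimidine enzyme. The ratio of Thi4 to ThiC was 5.48, 6.42 and 5.57 in the control libraries, 5.16, 4.27 and 5.0 at 15 mM and 2.12, 2.91 and 1.98 at 30 mM. A ratio within a library does not depend on its scaling, and here all libraries at 15 mM lay below the controls and all at 30 mM lay below those at 15 mM. Since Thi4 was chosen by its fall, the ratio at 30 mM is a description. The ratio at 15 mM was not tested, and it shares its control libraries with the comparison that chose Thi4. How many other pairs of sequences have ratios so separated was not computed. Thi4 made up 81.6 to 83.9% of the summed FPKM of the 9 sequences in the control, 75.9 to 79.9% at 15 mM and, at 30 mM, 47.6 to 62.1%. The 7 sequences other than Thi4 and ThiC together held 10.4, 10.3 and 12.8 FPKM in the control, 12.8, 11.7 and 15.8 FPKM at 15 mM and 22.6, 19.3 and 21.6 FPKM at 30 mM.

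The joining enzyme, thiamine phosphate synthase (T30_2_TRINITY_DN1139_c0_g1), was at a low level in every group. It averaged 1.61 ± 0.239 FPKM at 30 mM and 1.76 ± 0.212 FPKM in the control (SD, n = 3 each), with overlapping libraries (log2 difference -0.08, SE 0.13; limma, adjusted p = 0.766). Its mean at 15 mM was 1.99 ± 0.15 FPKM. Thiamine pyrophosphokinase (T30_1_TRINITY_DN34956_c0_g1), which forms the cofactor, was at 4.8, 2.06 and 3.14 FPKM at 30 mM, against 1.24, 1.2 and 1.78 FPKM in the control. These libraries did not overlap, but the difference of 0.81 (SE 0.24) did not pass the test (limma, adjusted p = 0.0659) and passed without 30 mM replicate 2 (adjusted p = 0.0279).

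Both sequences called higher belonged to the TENA/THI-4 family, which despite its name is a family separate from Thi4 and in bacteria and Arabidopsis salvages the pyrimidine part from damaged thiamine. TCK_1_TRINITY_DN7792_c0_g1 was at 4.73, 5.55 and 7.53 FPKM at 30 mM, against 1.72, 1.49 and 2.03 FPKM in the control (log2 difference 1.32, SE 0.18; limma, adjusted p = 0.00245). T30_2_TRINITY_DN45068_c0_g1 was at 2.18, 2.24 and 2.23 FPKM at 30 mM, against 0.38, 0.53 and 0.51 FPKM in the control (log2 difference 1.13, SE 0.13; limma, adjusted p = 0.00117). At 15 mM the first was at 2.28, 1.88 and 2.73 FPKM, overlapping the control, and the second at 0.7, 0.79 and 0.87 FPKM, above it. Both were also higher at 30 mM than at 15 mM, by 1.06 (adjusted p = 0.0181) and 0.85 (adjusted p = 0.0125) on the log2 scale in limma. The remaining family member, TCK_3_TRINITY_DN2675_c0_g1, averaged 2.76 ± 0.562 FPKM at 30 mM and 2.25 ± 0.412 FPKM in the control (SD, n = 3 each; limma, adjusted p = 0.482).

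The phosphomethylpyrimidine kinase family, whose members phosphorylate the pyrimidine part or vitamin B6, had 2 sequences, neither of them called in the values as deposited with all 9 libraries. T30_3_TRINITY_DN5937_c0_g1, annotated as pyridoxine kinase, averaged 4.22 ± 0.471 FPKM at 30 mM and 2.58 ± 0.34 FPKM in the control (SD, n = 3 each; log2 difference 0.54, SE 0.17; limma, adjusted p = 0.0798). It was called higher without the 4 most abundant sequences (adjusted p = 0.045) and when replicate 2 at 15 mM was left out (adjusted p = 0.0313), within a range of 0.0313 to 0.363 over all alternatives. T30_1_TRINITY_DN1630_c0_g1 averaged 1.09 ± 0.215 FPKM at 30 mM and 0.963 ± 0.244 FPKM in the control (SD, n = 3 each; limma, adjusted p = 0.764).

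Among the enzymes that use thiamine diphosphate more were higher than lower at 30 mM. The annotation held 23 such sequences, of which 22 were in the expression table and 21 passed the filter on low values; the one left out by the filter reached at most 1.23 FPKM. In the 30 mM libraries 10 of the 21 were higher than in the control and 2 were lower, beside 21.1% and 2.95% of annotated sequences, with a median log2 difference of 0.59 beside 0.30 for all annotated sequences. The libraries did not overlap in 16 that were higher and 3 that were lower, beside 47.3% and 7.92% of all annotated sequences. The higher count was 10 without the 4 most abundant sequences, 7 after median-of-ratios rescaling and 6 after quantile normalization. The lower count was 2 under each scaling. In that order of scalings, 22.2, 13.3 and 11.6% of annotated sequences were called higher and 5.97, 9.73 and 10.6% lower. The higher count of the list was 5 without 30 mM replicate 1, control replicate 1 or control replicate 2. At 15 mM against control limma called none, with 5 of the 21 at an unadjusted p under 0.05, beside 15.1% of annotated sequences. Their median there was 0.22, beside 0.19 for annotated sequences.

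**Figure D4:**
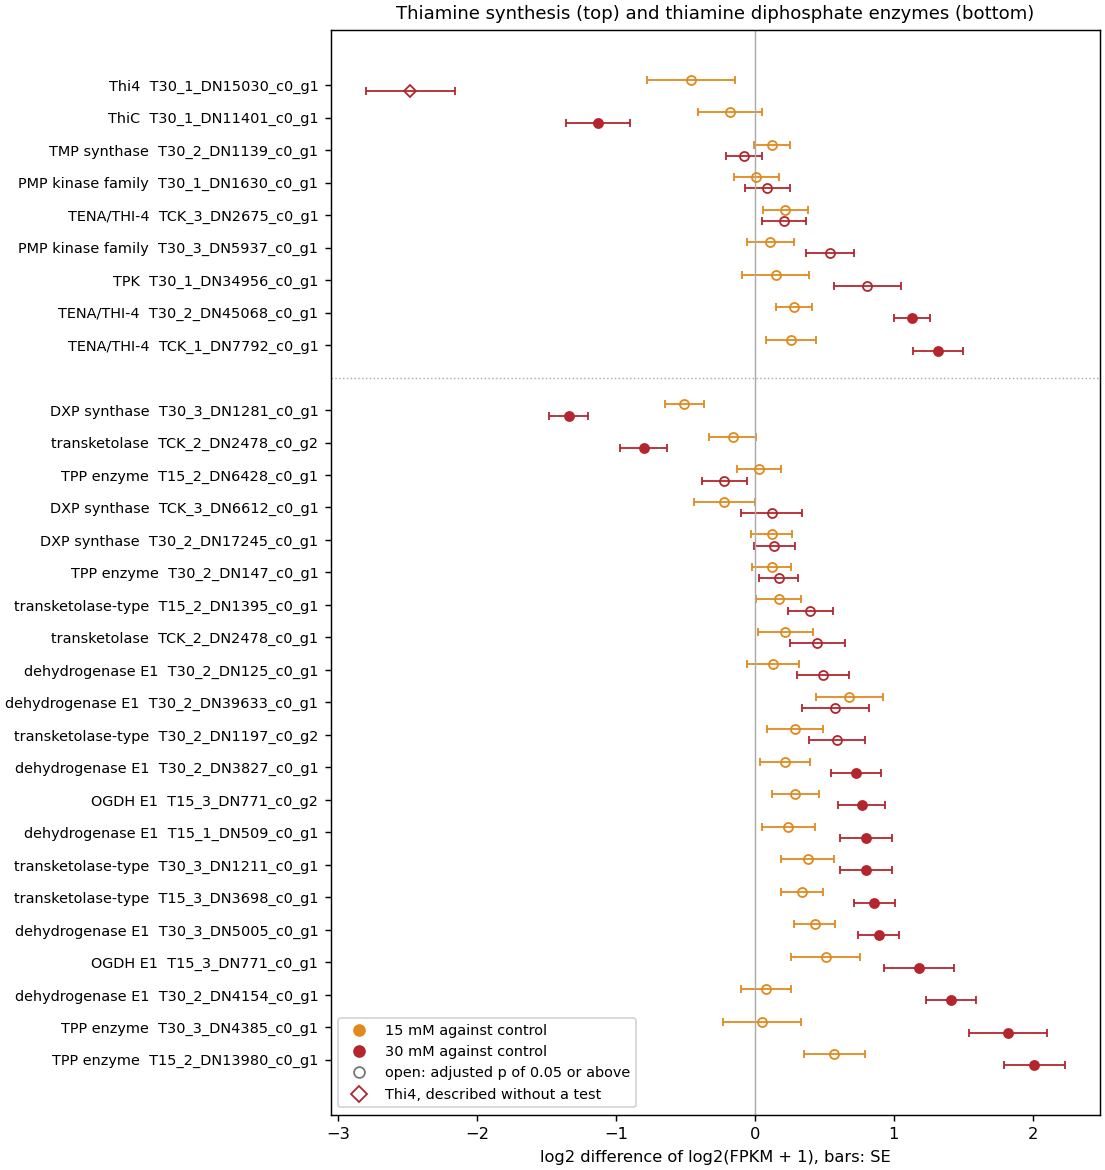
Log2 differences against control (x axis, on the log2(FPKM + 1) scale) at 15 mM (orange, upper mark of each row) and 30 mM (red, lower mark) for the thiamine synthesis list (top) and the thiamine diphosphate enzymes (bottom), with bars of 1 SE; filled marks passed an adjusted p of 0.05 in limma and the diamond is Thi4, which was described without a test. Thi4, ThiC, a DXP synthase and a transketolase lie at -0.80 or below at 30 mM, most cofactor-using enzymes lie above 0, and no mark at 15 mM is filled.

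When the list was divided by enzyme type, which was done after the values were seen, the 2 lower sequences were 1 of 3 DXP synthases and 1 of 2 transketolases. The DXP synthase, T30_3_TRINITY_DN1281_c0_g1, of the first step of plastid isoprenoid synthesis, was at 6.71, 7.6 and 5.94 FPKM at 30 mM, against 16.25, 22.28 and 17.53 FPKM in the control (log2 difference -1.34, SE 0.14; limma, adjusted p = 0.000872). At 15 mM it was at 11.82, 13.24 and 13.25 FPKM, below all controls, which did not pass the test (limma, adjusted p = 0.276). The other 2 DXP synthase sequences were not called.

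The most abundant of these enzymes, the transketolase TCK_2_TRINITY_DN2478_c0_g2 of the Calvin cycle and the pentose phosphate pathway, was at 119.7, 102.72 and 110.35 FPKM at 30 mM, against 172.47, 207.35 and 201.17 FPKM in the control. The libraries did not overlap and the log2 difference was -0.80 (SE 0.17; limma, adjusted p = 0.018). The call was lost without 30 mM replicate 2 (adjusted p = 0.052), control replicate 2 (adjusted p = 0.0769) or control replicate 3 (adjusted p = 0.0643). Thi4 stood at 0.398, 0.708 and 0.331 times this transketolase at 30 mM, against 1.43, 1.35 and 1.66 times in the control. Thi4 was thus the more abundant of the pair in every control library and the less abundant in every library at 30 mM. Since Thi4 was chosen by its fall, this too is a description, and other pairs of sequences were not compared with this transketolase and Thi4. A second sequence of the same assembly component, TCK_2_TRINITY_DN2478_c0_g1, may share reads with it and was not called (log2 difference 0.45; limma, adjusted p = 0.189).

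The list held 8 sequences with the dehydrogenase E1 domain, of which 6 were called higher at 30 mM, beside 21.1% of annotated sequences. After median-of-ratios rescaling or quantile normalization 3 were called higher, beside 13.3 and 11.6% of annotated sequences. A further 4 sequences carried transketolase-type domains alone, and 2 of these were called higher, with log2 differences of 0.40 to 0.86 for the 4. T15_3_TRINITY_DN3698_c0_g1 was among them (log2 difference 0.86, SE 0.15; limma, adjusted p = 0.00807) and kept its call in all 18 alternatives. The other, T30_3_TRINITY_DN1211_c0_g1, was called in 9 of 17. Both sequences of the 2-oxoglutarate dehydrogenase E1 subunit, an enzyme of the citric acid cycle, come from 1 assembly component, may share reads and were higher at 30 mM, as were 4 of 6 other dehydrogenase E1 sequences, whose log2 differences were 0.49 to 1.41. T30_2_TRINITY_DN4154_c0_g1, one of those E1 subunits, was at 10.35, 7.94 and 5.96 FPKM at 30 mM, against 2.24, 2.35 and 2.48 FPKM in the control (log2 difference 1.41, SE 0.18; limma, adjusted p = 0.00179). The 2-oxoglutarate dehydrogenase T15_3_TRINITY_DN771_c0_g1 was at 7.61, 4.07 and 6.45 FPKM at 30 mM, against 1.68, 2.15 and 2.29 FPKM in the control (log2 difference 1.18, SE 0.25; limma, adjusted p = 0.0189). Leaving out replicate 1 or 3 at 30 mM, or control replicate 1 or 2, ended its call (adjusted p = 0.0563 to 0.0759). The calls of T15_1_TRINITY_DN509_c0_g1, T15_3_TRINITY_DN771_c0_g2 and T30_2_TRINITY_DN3827_c0_g1 were lost after median-of-ratios rescaling (adjusted p = 0.0956, 0.0875 and 0.0861) and quantile normalization (adjusted p = 0.172, 0.206 and 0.174), and each also without replicate 1 at 30 mM, control replicate 1 or control replicate 2, among others.

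The largest rises of the list were in the broad TPP enzyme family, which includes pyruvate decarboxylase and acetolactate synthase; the annotation gives no finer name to the 2 sequences described here. T15_2_TRINITY_DN13980_c0_g1 was at 31.57, 26.01 and 29.42 FPKM at 30 mM, against 6.35, 5.78 and 7.23 FPKM in the control (log2 difference 2.01, SE 0.22; limma, adjusted p = 0.000984). T30_3_TRINITY_DN4385_c0_g1 was at 7.22, 2.66 and 5.62 FPKM at 30 mM, against 0.78, 0.49 and 0.72 FPKM in the control (log2 difference 1.82, SE 0.28; limma, adjusted p = 0.00421). Both differed from 15 mM as well (adjusted p = 0.0129 and 0.0135 in limma), where the first was at 11.28, 6.52 and 13.38 FPKM and the second at 0.75, 0.5 and 0.93 FPKM. The other 2 sequences of this family were not called.

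Sequences that make NAD or turn over glycine, the substrates of Thi4, were not called lower at 30 mM in the values as deposited. For NAD, 2 of 3 synthesis sequences were higher at 30 mM against control, beside 21.1% of annotated sequences. After median-of-ratios rescaling or quantile normalization 1 was higher, beside 13.3 and 11.6% of annotated sequences. The quinolinate synthase T15_1_TRINITY_DN7295_c0_g1, the iron-sulfur enzyme early in plastid NAD synthesis, was at 8.51, 6.02 and 5.56 FPKM at 30 mM, against 2.69, 3.53 and 3.15 FPKM in the control (log2 difference 0.89, SE 0.17; limma, adjusted p = 0.0119, and 0.0568 without control replicate 1). The NAD synthase T15_1_TRINITY_DN7903_c0_g1 averaged 6.3 ± 1.01 FPKM at 30 mM and 3.53 ± 0.44 FPKM in the control (SD, n = 3 each; limma, adjusted p = 0.0354), a call lost after both of these scalings (adjusted p = 0.0999 and 0.185) and without any 1 of 6 libraries.

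For glycine, 1 of 13 sequences of glycine cleavage and serine hydroxymethyltransferase was higher at 30 mM and none was lower as deposited, beside 21.1% and 2.95% of annotated sequences. An unadjusted p under 0.05 was found for 6 of the 13, a share near the 45.9% of annotated sequences. Without the 4 most abundant sequences, or after either other scaling, 5 of the 13 were called lower, beside 5.97 to 10.6% of annotated sequences on these scales. The most abundant, the glycine cleavage P protein T30_3_TRINITY_DN8453_c0_g1 of photorespiration, was at 140.04, 122.01 and 127.82 FPKM at 30 mM, against 200.59, 249.49 and 230.58 FPKM in the control. Its libraries did not overlap and the difference was -0.80 (SE 0.24; limma, adjusted p = 0.0666), where that of Thi4 was -2.48.

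In sulfur and iron-sulfur supply, 3 of 13 sulfate and cysteine sequences and 3 of 12 iron-sulfur assembly sequences were higher at 30 mM. None was lower as deposited, and these shares were near the 21.1% higher and 2.95% lower of annotated sequences. Among the 3 higher assembly sequences is the quinolinate synthase T15_1_TRINITY_DN7295_c0_g1, also counted above for NAD. After median-of-ratios rescaling the sulfate and cysteine list had 2 higher and 4 lower. The assembly list had 2 higher and 2 lower on that scale, beside 13.3% higher and 9.73% lower of annotated sequences. The serine acetyltransferase T15_3_TRINITY_DN4368_c0_g2, which starts cysteine synthesis, was at 25.19, 17.22 and 19.94 FPKM at 30 mM, against 8.01, 7.56 and 10.31 FPKM in the control (log2 difference 1.17, SE 0.21; limma, adjusted p = 0.0087). The SufE-type protein T30_2_TRINITY_DN1897_c0_g1, which passes sulfur to cluster assembly, was at 5.9, 6.76 and 7.55 FPKM at 30 mM, against 2.11, 1.48 and 3.08 FPKM in the control (log2 difference 1.29, SE 0.22; limma, adjusted p = 0.00697).

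Among 18 sequences for other B vitamins, 3 were higher at 30 mM and none was lower, not above the 21.1% of annotated sequences called higher. After median-of-ratios rescaling 1 was higher and 2 were lower, beside 13.3 and 9.73% of annotated sequences. The riboflavin enzyme ribBA, T15_1_TRINITY_DN4606_c0_g1, was at 37.48, 44.55 and 44.56 FPKM at 30 mM, against 12.6, 13.38 and 11.75 FPKM in the control (log2 difference 1.67, SE 0.11; limma, adjusted p = 0.000162), and at 20.44, 21.62 and 21.87 FPKM at 15 mM, between the other groups. The most abundant of the list, the vitamin B6 synthase T15_2_TRINITY_DN43584_c0_g1, averaged 94.8 ± 13.4 FPKM at 30 mM and 96.4 ± 12.3 FPKM in the control (SD, n = 3 each; log2 difference -0.02, SE 0.25; limma, adjusted p = 0.971). Its libraries overlapped.

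In Arabidopsis, transcripts of thiamine synthesis genes are under circadian control, so clock and photoreceptor sequences were read as well. None of 13 was called at 30 mM against control by limma and none had an unadjusted p under 0.05, with a median log2 difference of -0.10. Of annotated sequences 21.1% were called higher, 2.95% lower and 45.9% had an unadjusted p under 0.05. After median-of-ratios rescaling or quantile normalization 6 of the 13 were called lower, and 3 were without the 4 most abundant sequences, beside 9.73, 10.6 and 5.97% of annotated sequences called lower after median-of-ratios rescaling, after quantile normalization and without those 4. The most abundant, the pseudo-response regulator TCK_1_TRINITY_DN124_c0_g1, averaged 22.4 ± 2.46 FPKM at 30 mM and 25.4 ± 3.11 FPKM in the control (SD, n = 3 each).

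The pattern of Thi4 over the 9 libraries was shared by many abundant sequences. Among the 3335 other annotated sequences averaging 5 FPKM or more, 172 had a Pearson correlation of at least 0.9 with Thi4 on the log2(FPKM + 1) scale over the 9 libraries, and the median was -0.47. These correlations are descriptions: the libraries share their doses and depth, and any sequence that is low at 30 mM scores high. The correlation of deviations from the dose means, which leaves the dose out, had a median of 0.55, so libraries of a dose moved many sequences together. ThiC ranked 26 of 3335 with a correlation of 0.97, and of 0.91 within doses. The transketolase TCK_2_TRINITY_DN2478_c0_g2 ranked 99 with 0.94, and 0.56 within doses.

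The most alike was the chlorophyll-binding sequence TCK_3_TRINITY_DN847_c0_g1, an antenna protein of photosynthesis, with a correlation of 0.99 and of 0.92 within doses. It was at 71.3, 94.15 and 63.86 FPKM at 30 mM, against 177.92, 230.65 and 216.15 FPKM in the control. Its log2 difference of -1.44 was smaller than the -2.48 of Thi4. Also among the 10 most alike, each with a correlation of 0.98 or 0.99, were a methyltransferase (T15_3_TRINITY_DN1286_c0_g2), an aspartic peptidase-like sequence with xylanase inhibitor domains (T15_3_TRINITY_DN6279_c0_g1), an ammonium transporter (T30_1_TRINITY_DN46563_c0_g1) and a member of the carotenoid oxygenase family (T15_3_TRINITY_DN2708_c0_g1). The carotenoid oxygenase family member came nearest to Thi4 in size, at 15.1, 27.14 and 12.63 FPKM at 30 mM, against 68.78, 92.41 and 83.17 FPKM in the control, a log2 difference of -2.16. The remaining members of the 10 were T30_3_TRINITY_DN3978_c1_g1, T30_2_TRINITY_DN55414_c0_g1, TCK_2_TRINITY_DN14480_c0_g1, TCK_2_TRINITY_DN5979_c0_g1 and TCK_1_TRINITY_DN661_c0_g1, with log2 differences of -1.17, -0.98, -0.71, -0.56 and -0.78.

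**Figure D5:**
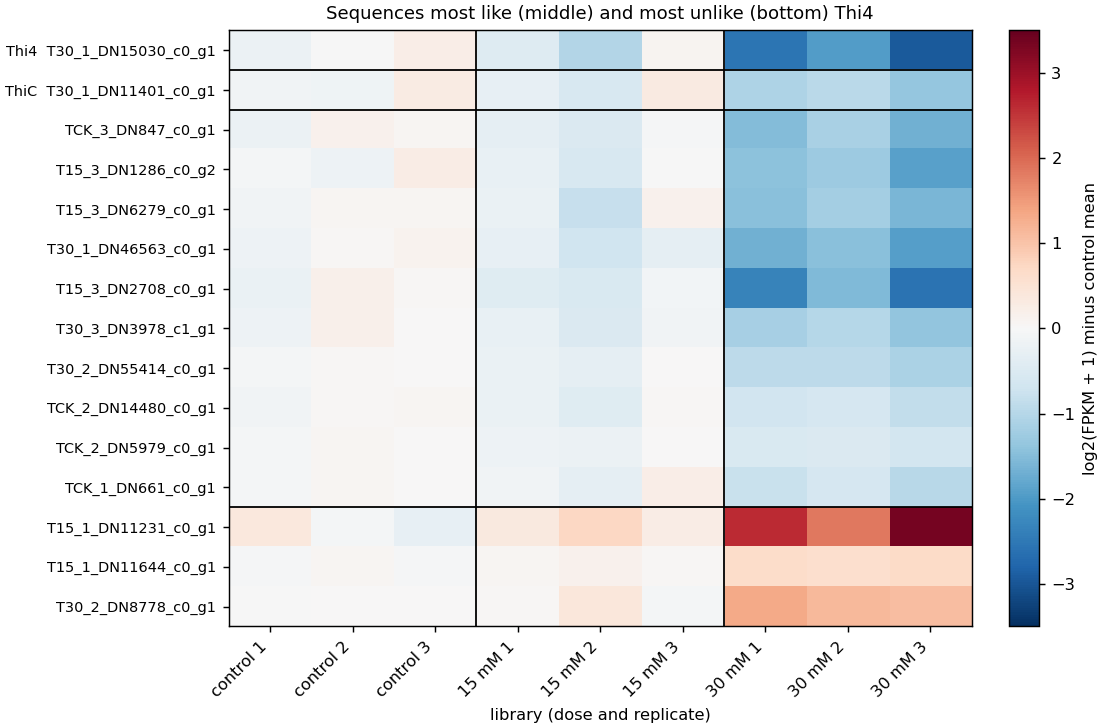
Log2(FPKM + 1) minus the control mean (colour) of Thi4, ThiC, the 10 annotated sequences most like Thi4 and the 3 most unlike it (rows), in the 9 libraries ordered by dose and replicate (columns). Thi4 has the deepest blue of these rows at 30 mM, with its highest library there in replicate 2, and the 3 unlike sequences are red at 30 mM.

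The 3 most unlike sequences were a tify-domain sequence (T15_1_TRINITY_DN11231_c0_g1), of the family that includes the JAZ repressors of jasmonate signalling, a Myb-like sequence (T15_1_TRINITY_DN11644_c0_g1) and a family 18 glycosyl hydrolase (T30_2_TRINITY_DN8778_c0_g1), with correlations of -0.98, -0.97 and -0.96. The tify-domain sequence was at 22.24, 12.68 and 37.42 FPKM at 30 mM, against 3.86, 2.59 and 2.14 FPKM in the control. The order of its libraries at 30 mM was the reverse of that of Thi4, with replicate 2 lowest where Thi4 was highest and replicate 3 highest where Thi4 was lowest. This order enters the correlation by which the sequence was picked.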

How the data were processed

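The authors deposited FPKM values with 2 decimals for 82125 sequences in 9 libraries, and an annotation table of protein domains without measured values, per the file headers. Sequence names carry the Trinity assembler. Per the submitters' processing notes, RSEM, DESeq, FastQC 0.11.5 and Trimmomatic 0.36 were used, in roles not stated; how assemblies were merged and mapped is not given in the sources used here. The 44203 sequences reaching 0.5 FPKM in 3 or more libraries were fitted with limma 3.58.1 (R 4.3.3) on log2(FPKM + 1), 3 groups in 1 model with 6 residual degrees of freedom and a mean trend, two-sided, with Benjamini-Hochberg adjustment over all 44203 and a threshold of 0.05. A fold change on this scale understates the change of low sequences. The fit was tested on simulated data. Sequences were listed by Pfam domain, and the named ones are all 9 of thiamine synthesis, up to 4 called per list and direction with the largest difference at 30 mM plus the most abundant, and those most like Thi4, of which some are given in the text. The members, the lists and the tests were chosen with earlier results of these data known. No sequence letters or genome positions were used.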

Additional observations from a re-analysis of the deposited data

How the results depend on the processing

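Thi4 kept its direction in all 3 comparisons under every alternative run: a pseudocount of 0.1 or 5, no filter, a mean of at least 5 FPKM, quantile normalization, median-of-ratios rescaling, the 4 most abundant sequences left out, the 6 libraries of a comparison alone, a replicate block and each library left out. Without 1 library its log2 difference was -2.74 to -2.25 at 30 mM against control, -2.30 to -1.74 at 30 mM against 15 mM and -0.74 to -0.18 at 15 mM against control. Calls over all sequences depended on the processing, and the cause was not tested. At 15 mM against control they numbered 44, and 76 with the 4 most abundant left out, 213 with a mean of at least 5 FPKM, 71 after median-of-ratios rescaling, 4 without a filter, 102 and 5 with pseudocounts of 0.1 and 5, 76 after quantile normalization, 14 in the 6 libraries and 5 to 135 without 1 library. At 30 mM against control they numbered 5200, and 2380 with a mean of at least 5 FPKM, 3401 without a filter and 2350 to 5773 without 1 library. At 30 mM against 15 mM they numbered 1371, and 2468 with the 4 most abundant left out, 2145 after median-of-ratios rescaling, 746 without a filter, 2236 after quantile normalization, 403 in the 6 libraries and 518 to 1572 without 1 library.

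The replicate numbers do not pair libraries: deviations from group means correlated at -0.0128 to 0.0269 between libraries of the same number and at -0.0272 to 0.0255 between different numbers. With the replicate block the calls numbered 4 at 15 mM against control, 3642 at 30 mM against control and 851 at 30 mM against 15 mM.

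The lists moved as follows. Of the other lists together, 15 sequences were higher and 20 lower at 30 mM against control; with the 4 most abundant left out 34 were lower, after median-of-ratios rescaling 7 were higher and 44 lower, after quantile normalization 7 were higher and 43 lower, and without 1 library 6 to 19 were higher and 10 to 24 lower, the low higher counts coming without 30 mM replicate 1 or any control and the low lower counts without 30 mM replicate 1 or 3 or control replicate 2. Of the thiamine diphosphate enzymes, 6 were higher at 30 mM against control with a mean of at least 5 FPKM and 6 after quantile normalization, and 5 to 10 were higher and 1 to 2 lower without 1 library. Of thiamine synthesis, 0 were higher with a mean of at least 5 FPKM, which leaves 2 members, and 2 to 3 were higher and 1 to 2 lower without 1 library. At 15 mM against control 1 sequence of the other lists was higher with a mean of at least 5 FPKM and 1 with a pseudocount of 0.1. At 30 mM against 15 mM, thiamine synthesis had 2 lower with the 4 most abundant left out, with a mean of at least 5 FPKM, after median-of-ratios rescaling and after quantile normalization, 0 higher with a mean of at least 5 FPKM, 0 in either direction in the 6 libraries, and 0 to 2 higher and 0 to 1 lower without 1 library. The thiamine diphosphate enzymes had 5 higher and 2 lower there with the 4 most abundant left out, 2 lower with a mean of at least 5 FPKM and after median-of-ratios rescaling, 1 higher and 0 lower in the 6 libraries, and 1 to 3 higher and 0 to 1 lower without 1 library. The other lists had 4 higher and 9 lower, and 23 lower with the 4 most abundant left out, 23 with a mean of at least 5 FPKM, 27 after median-of-ratios rescaling, 27 after quantile normalization, 1 higher and 4 lower without a filter, 1 higher and 2 lower in the 6 libraries, and 1 to 3 higher and 0 to 16 lower without 1 library. Library depth is unknown in FPKM, which gives no counting error for the low sequences.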
